A study of Mus musculus with 20 samples.

Results

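The 10 nuclear genes described here act in mitochondrial division, fusion and clearance and were measured by RNA-seq of mouse hearts: the fission genes Mtfp1, Dnm1l, Fis1 and Mff, the fusion genes Mfn1, Mfn2 and Opa1, and the mitophagy genes Pink1, Bnip3 and Fundc1. They were taken by name, and all 10 were found among the 25851 genes of the deposited expression table. All 10 are annotated as protein coding and passed the filter on low values. The 4 groups were labelled cardiomyocyte PGC-1α knockout after 6 weeks of voluntary wheel running (KO_Ex), the same genotype kept sedentary (KO_Sed), wild type after 6 weeks of running (WT_Ex) and sedentary wild type (WT_Sed). Each group held 5 male mice aged 14 to 16 weeks. Strain, the Cre driver and the deleted part of the gene are not given in the sources used here.

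Mitochondria divide when the GTPase DRP1, encoded by Dnm1l, is drawn to outer-membrane receptors such as MFF and FIS1 and constricts the organelle. Mitofusins 1 and 2 join outer membranes, and OPA1 joins inner membranes and shapes cristae. Damaged mitochondria are cleared by mitophagy, either through the kinase PINK1 and ubiquitin, or through membrane receptors such as BNIP3 and FUNDC1 that bind the autophagosome directly. In the adult heart, mice lacking both mitofusins, DRP1 or MTFP1 in cardiomyocytes develop cardiomyopathy. PGC-1α, encoded by Ppargc1a, is a coactivator of mitochondrial biogenesis that works with estrogen-related receptors and NRF1, and its known targets in muscle include mitofusin genes.

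Positions are those of GENCODE M21 on GRCm38. Mtfp1 (ENSMUSG00000004748) is on the minus strand of chromosome 11 from 4091480 to 4095445, and Dnm1l (ENSMUSG00000022789) is on the minus strand of chromosome 16 from 16312230 to 16358959. Fis1 (ENSMUSG00000019054) is on the plus strand of chromosome 5 from 136953275 to 136966234, and Mff (ENSMUSG00000026150) is on the plus strand of chromosome 1 from 82724890 to 82752394. Mfn1 (ENSMUSG00000027668) is on the plus strand of chromosome 3 from 32529465 to 32579239, and Mfn2 (ENSMUSG00000029020) is on the minus strand of chromosome 4 from 147873599 to 147904704. Opa1 (ENSMUSG00000038084) is on the plus strand of chromosome 16 from 29579334 to 29654884, and Pink1 (ENSMUSG00000028756) is on the minus strand of chromosome 4 from 138313409 to 138326307. Bnip3 (ENSMUSG00000078566) is on the minus strand of chromosome 7 from 138890836 to 138909519, and Fundc1 (ENSMUSG00000025040) is on the minus strand of chromosome X from 17556564 to 17572325. Dnm1l and Opa1 share a chromosome, as do Mfn2 and Pink1, and neither pair is adjacent. The lowest and highest read numbers behind a single value were 204 and 730 for Fundc1, 886 and 3036 for Mtfp1, 3270 and 8641 for Mfn1, and 10162 and 38156 for Mfn2.

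Libraries held 14160421 to 30427247 reads assigned to genes. Levels are in FPKM, fragments scaled for exon length and for a library size that was not the read total. This size was above the reads assigned to genes in every KO_Ex library and in WT_Ex replicate 4. It was below them in every other library. FPKM summed to 331876 to 398369 in KO_Ex libraries and to 410641 to 531587 in the other groups. Scaling to a common sum, used below, sets these sums equal. Ppargc1a, the targeted gene, averaged 22.6 ± 3.01 FPKM in KO_Ex, 22.9 ± 4.41 in KO_Sed, 15.8 ± 4.86 in WT_Ex and 12.3 ± 2.85 in WT_Sed (SD, n = 5 each). Its level was thus higher under the knockout label, and every genotype difference below is between hearts labelled knockout and wild type. Reads from a part of the gene that was not deleted would not check the label. The 4 libraries KO_Ex replicates 2 and 5 and WT_Ex replicates 4 and 5 had the atrial transcript Myl7 at 1355 to 3484 FPKM, against at most 97.1 in the rest. The same 4 libraries held the fat transcripts Adipoq, at 3.94 to 36.7 FPKM, and Ucp1 of brown fat, at 4.42 to 117 FPKM, against at most 0.362 and 0.0367 in the rest. Without these 4 libraries each of the 14 calls on the 10 genes reported below was still made. The 5 libraries KO_Sed replicate 1 and WT_Sed replicates 1 to 4 had the clock gene Arntl at 2.46 to 4.36 FPKM, against at most 1.16 in the rest.

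The summed level of 10 cardiomyocyte transcripts was 14556 to 16926 FPKM in KO_Ex, 21493 to 25349 in KO_Sed, 18168 to 23656 in WT_Ex and 21367 to 26632 in WT_Sed, with none of the 10 at 0. Of them 7 fell in KO_Ex against WT_Ex, 8 in KO_Ex against KO_Sed and 2 in KO_Sed against WT_Sed, by limma adjusted p. Over all genes 15.4%, 16.3% and 6.32% were called lower in these comparisons. The 10 had median log2 fold changes of -0.46, -0.68 and -0.11 there, against -0.01, -0.02 and -0.01 over all genes. The 6 fibroblast markers summed to 271 to 379 FPKM in KO_Ex, 146 to 189 in KO_Sed, 118 to 194 in WT_Ex and 127 to 149 in WT_Sed, and 5 of 6 rose in KO_Ex against WT_Ex. All 5 macrophage markers rose in the same comparison and 3 of 5 in KO_Sed against WT_Sed, with sums of 275 to 504 FPKM in KO_Ex, 208 to 231 in KO_Sed, 131 to 243 in WT_Ex and 125 to 184 in WT_Sed. Of 5 endothelial markers, 3 fell in KO_Ex against WT_Ex and 2 in KO_Sed against WT_Sed, with sums of 118 to 150.5 FPKM in KO_Ex, 117 to 154 in KO_Sed, 155 to 209.7 in WT_Ex and 154 to 196 in WT_Sed. Over all genes 12.5% were called higher in KO_Ex against WT_Ex and 6.96% in KO_Sed against WT_Sed. In KO_Ex against KO_Sed 4 of 6 fibroblast and 5 of 5 macrophage markers rose, where 12.1% of all genes did. No endothelial marker was called there. No fibroblast, macrophage or endothelial marker was at 0 in any group. The part of these cell-type shifts in the results below was not tested, and in bulk heart tissue fewer cells of a type and less RNA per cell cannot be told apart.

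The 250 bases before the RefSeq start sites are shown for the 3 genes that were lower in both genotype comparisons. They are also shown for Opa1 and Bnip3, which hold a searched motif. The Mfn2 window with a match is not shown. Sequences are from RefSeq on GRCm38.p6, on the gene's strand, in lower case with motif matches in capitals.
Mtfp1 (chr11:4095432-4095681, minus strand): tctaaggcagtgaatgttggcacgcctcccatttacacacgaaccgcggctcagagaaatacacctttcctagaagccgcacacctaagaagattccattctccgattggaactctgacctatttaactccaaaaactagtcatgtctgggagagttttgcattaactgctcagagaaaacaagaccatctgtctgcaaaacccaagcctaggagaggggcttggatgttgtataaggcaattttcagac
Mfn1 (chr3:32529232-32529481, plus strand): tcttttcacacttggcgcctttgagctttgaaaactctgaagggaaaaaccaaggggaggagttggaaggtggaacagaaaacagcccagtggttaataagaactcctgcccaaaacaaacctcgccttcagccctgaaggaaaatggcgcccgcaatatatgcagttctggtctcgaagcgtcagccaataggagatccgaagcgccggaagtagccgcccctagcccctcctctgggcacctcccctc
Pink1 (chr4:138326297-138326546, minus strand): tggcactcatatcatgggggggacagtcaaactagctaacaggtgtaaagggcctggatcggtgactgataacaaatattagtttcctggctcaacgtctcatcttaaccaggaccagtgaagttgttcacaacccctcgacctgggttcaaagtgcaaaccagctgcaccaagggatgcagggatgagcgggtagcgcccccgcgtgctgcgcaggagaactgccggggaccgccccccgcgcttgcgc
Opa1 (chr16:29579084-29579333, plus strand): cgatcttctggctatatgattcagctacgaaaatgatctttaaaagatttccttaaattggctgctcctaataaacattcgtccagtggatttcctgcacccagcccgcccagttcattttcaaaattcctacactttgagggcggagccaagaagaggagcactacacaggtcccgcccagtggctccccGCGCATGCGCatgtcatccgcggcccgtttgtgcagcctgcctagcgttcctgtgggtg
Bnip3 (chr7:138909507-138909756, minus strand): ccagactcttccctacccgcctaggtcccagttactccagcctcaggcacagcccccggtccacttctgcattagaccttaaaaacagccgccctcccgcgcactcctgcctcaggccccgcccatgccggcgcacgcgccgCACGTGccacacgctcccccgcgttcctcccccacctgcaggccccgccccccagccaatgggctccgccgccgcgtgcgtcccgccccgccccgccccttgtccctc

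RefSeq gave 15 start sites for the 10 genes, and both strands were searched. The estrogen-related receptor element TNAAGGTCA matched none of the 15, and 1.14% of all 32817 mouse promoter windows of that length. The NRF1 core GCGCATGCG matched only Opa1, where 2 overlapping matches on opposite strands give the 10 capitals, and 1.44% of all windows. The hypoxia element core ACGTG matched Bnip3 and 1 of the 3 Mfn2 windows, and 16.6% of all windows. The E-box CACGTG, which contains ACGTG, matched only Bnip3 among the 10 and 6.02% of all windows. In Bnip3 the capitals are this one palindrome, 108 bases before the start, which counts as an E-box once and as ACGTG on each strand. None of the 4 motifs was found in the Mtfp1, Mfn1 or Pink1 windows shown.

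Levels of the 10 transcripts spanned a wide range, and their order differed between groups. In KO_Ex hearts the order of mean FPKM was Mfn2, Pink1, Bnip3, Fis1, Mfn1, Mtfp1, Dnm1l, Opa1, Mff and Fundc1. The neighbours whose ranges overlapped there were Mfn2 and Pink1, Fis1 and Mfn1, Dnm1l and Opa1, and Mff and Fundc1. In WT_Sed hearts it was Pink1, Mfn2, Mtfp1, Mfn1, Bnip3, Fis1, Opa1, Dnm1l, Mff and Fundc1. There the overlapping neighbours were Bnip3 and Fis1, Opa1 and Dnm1l, and Mff and Fundc1. In KO_Ex Mtfp1 thus stood below Bnip3, Fis1 and Mfn1, and in WT_Sed above them. Mfn2 was above Pink1 in 5 of 5 KO_Ex libraries, and Pink1 was above Mfn2 in 5 of 5 libraries of each other group.

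**Figure D1:**
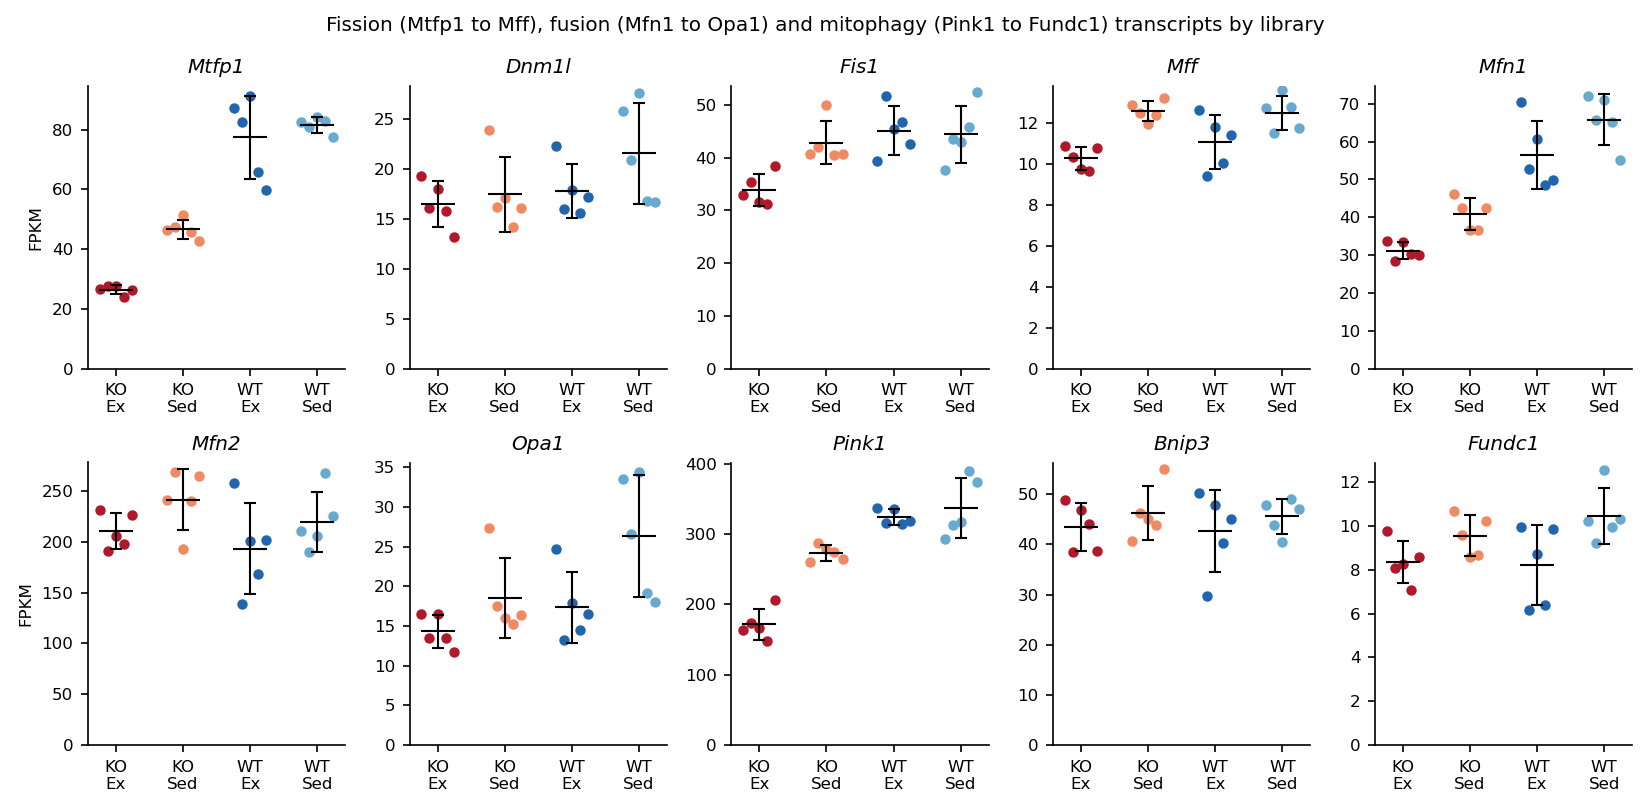
FPKM of each gene (vertical axis, from 0) in the 5 libraries of each group, with the mean and SD as a bar; KO is the labelled knockout, Ex trained and Sed sedentary. Mtfp1, Mfn1 and Pink1 stepped down through KO_Sed to KO_Ex with no overlap between genotypes, while Mfn2, Bnip3, Fundc1, Dnm1l and Opa1 overlapped in all 4 pairwise comparisons.

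Among the fission genes, Mtfp1 changed most. It encodes an inner-membrane protein first described as a promoter of fission. Mtfp1 had 26.7, 27.5, 27.6, 23.9 and 26.2 FPKM in KO_Ex hearts and 46.5, 47.3, 51.4, 45.7 and 42.5 FPKM in KO_Sed hearts. It had 87.2, 82.7, 91.2, 65.8 and 59.8 FPKM in WT_Ex hearts and 82.4, 80.8, 84.2, 82.7 and 77.6 FPKM in WT_Sed hearts. The KO_Ex, KO_Sed and wild-type ranges did not overlap, and the 2 lowest wild-type libraries were the WT_Ex ones with high Myl7. In sedentary hearts Mtfp1 fell in the labelled knockout, with a log2 fold change of -0.80 ± 0.0936 (SE; limma adjusted p = 2.61e-05). In trained hearts the log2 fold change was -1.52 ± 0.0936 (limma adjusted p = 3.34e-09), the fifth smallest p of the 13723 genes tested, and 0.240% of genes had a lower fold change. Training went with a further fall within the labelled knockout (-0.81 ± 0.0936, limma adjusted p = 1.03e-05). In wild-type hearts the trained to sedentary log2 fold change was -0.09 (95% confidence interval -0.29 to 0.10). The difference of the 2 training changes, labelled knockout minus wild type, was itself called (-0.72 ± 0.132, limma adjusted p = 0.00705). Without the 4 libraries of high Myl7 it was -0.92. Without the 5 libraries of high Arntl, which leaves 1 WT_Sed library, the Mtfp1 interaction was -0.79 and its limma adjusted p was 0.353.

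Fis1, which encodes a tail-anchored outer-membrane adaptor, was lower in trained labelled knockout hearts. Fis1 had 32.9, 35.4, 31.6, 31.2 and 38.5 FPKM in KO_Ex and 40.7, 42.1, 50.03, 40.6 and 40.6 FPKM in KO_Sed. In wild-type hearts it had 39.4, 51.7, 45.4, 46.7 and 42.6 FPKM after training and 37.6, 43.6, 42.9, 45.9 and 52.5 FPKM when sedentary. All 5 KO_Ex libraries were below every KO_Sed and WT_Ex library, by log2 fold changes of -0.33 and -0.41 (limma adjusted p = 0.00971 and 0.00209). In sedentary hearts the genotypes overlapped (-0.05, 95% confidence interval -0.24 to 0.14). With each library scaled to a common sum of FPKM, Fis1 was called in neither, at -0.06 and -0.12, while the median gene then moved by 0.21 and 0.24. Without transcripts of the mitochondrial genome in that sum the Fis1 values were -0.15 and -0.19, again not called. The 2 training changes of Fis1 differed by -0.35 (limma adjusted p = 0.0942), which was called with array weights (-0.44, limma adjusted p = 0.00613) and without WT_Sed replicate 5 (-0.42, limma adjusted p = 0.0353).

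Mff encodes the main outer-membrane receptor for DRP1. It had 10.9, 10.3, 9.77, 9.67 and 10.8 FPKM in KO_Ex and 12.9, 12.5, 11.97, 12.4 and 13.2 FPKM in KO_Sed, with no overlap. Its trained to sedentary log2 fold change in the labelled knockout was -0.28 ± 0.0721 (limma adjusted p = 0.00636), and -0.02 under a common sum and -0.10 under a common sum without mitochondrial-genome transcripts, neither called. In wild-type hearts Mff had 9.41 to 12.6 FPKM after training and 11.5 to 13.6 FPKM when sedentary (-0.17, limma adjusted p = 0.138). Without WT_Ex replicate 1 this wild-type change was called (-0.22, limma adjusted p = 0.0396). The 2 training changes differed by -0.11 (95% confidence interval -0.32 to 0.11), so no genotype dependence was shown.

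Dnm1l, which encodes the fission GTPase itself, was not called in any comparison with equal weights on all libraries and no replicate block. It had 19.3, 16.1, 18.0, 15.8 and 13.2 FPKM in KO_Ex, 23.9, 16.1, 17.1, 14.2 and 16.0 in KO_Sed, 22.3, 15.9, 17.9, 15.5 and 17.1 in WT_Ex, and 25.8, 20.9, 27.6, 16.8 and 16.6 in WT_Sed. The groups overlapped throughout, and the 95% confidence interval of the genotype log2 fold change was -0.61 to 0.04 in sedentary hearts and -0.43 to 0.22 in trained hearts. With array weights, which give variable libraries less weight, the sedentary change of Dnm1l was called (-0.44, limma adjusted p = 0.00799). It was also called with a replicate block, a term for replicate number in the fit (-0.29, limma adjusted p = 0.0369). The ratio of Mtfp1 to Dnm1l FPKM averaged 1.63 ± 0.234 in KO_Ex, 2.75 ± 0.494 in KO_Sed, 4.38 ± 0.739 in WT_Ex and 3.94 ± 0.845 in WT_Sed (SD, n = 5 each).

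Of the fusion genes, Mfn1 was lower under the knockout label and its paralog Mfn2 was not called. Mfn1 had 33.6, 28.5, 33.4, 30.3 and 29.9 FPKM in KO_Ex hearts and 46.2, 42.4, 36.7, 36.5 and 42.5 FPKM in KO_Sed hearts. It had 70.3, 52.9, 60.7, 48.6 and 49.8 FPKM in WT_Ex hearts and 72.0, 65.7, 71.0, 65.2 and 55.1 FPKM in WT_Sed hearts. Every labelled knockout library was below every wild-type library. The log2 fold change was -0.68 ± 0.1003 in sedentary hearts (limma adjusted p = 0.000228) and -0.84 ± 0.1003 in trained hearts (limma adjusted p = 3.96e-06). Under a common sum the trained difference of Mfn1 was -0.55 (limma adjusted p = 0.000257). Training lowered Mfn1 in the labelled knockout (-0.38 ± 0.1003, limma adjusted p = 0.00731), a call lost under a common sum (-0.11) and under a common sum without mitochondrial-genome transcripts (-0.20). The wild-type training change was -0.23 (95% confidence interval -0.44 to -0.02, limma adjusted p = 0.158), and the 2 changes differed by -0.16 (-0.45 to 0.14). Without WT_Ex replicate 1, the highest trained wild-type library, the wild-type change was -0.31 (limma adjusted p = 0.0305).

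Mfn2, the more abundant mitofusin and also a tether to the endoplasmic reticulum, had 231, 191, 205, 198 and 226 FPKM in KO_Ex and 241, 269, 193, 239.9 and 264 FPKM in KO_Sed. It had 258, 139, 201, 168 and 202 FPKM in WT_Ex and 210.4, 190.0, 206, 268 and 226 FPKM in WT_Sed. All groups overlapped, and the genotype log2 fold changes were 0.13 (95% confidence interval -0.15 to 0.41) when sedentary and 0.15 (-0.13 to 0.43) after training. Under a common sum Mfn2 was called higher in trained labelled knockout hearts (0.44, limma adjusted p = 0.0103), as it was without mitochondrial-genome transcripts (0.36, limma adjusted p = 0.0437), where the median gene moved by 0.24 and 0.18.

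The balance of the 2 mitofusins is independent of the library scaling, because it is a ratio within a library. Mfn1 made up 12.9 ± 0.849% of the summed mitofusin FPKM in KO_Ex, 14.5 ± 1.36% in KO_Sed, 22.9 ± 2.92% in WT_Ex and 23.2 ± 3.28% in WT_Sed (SD, n = 5 each). The ranges were 11.7 to 14.0% and 13.2 to 16.1% in the labelled knockout groups, against 19.8 to 27.6% and 19.6 to 25.7% in the wild-type groups. Genotypes did not overlap, and training groups overlapped within each genotype. These shares are a description without a test, since both genes were chosen with their changes known.

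**Figure D2:**
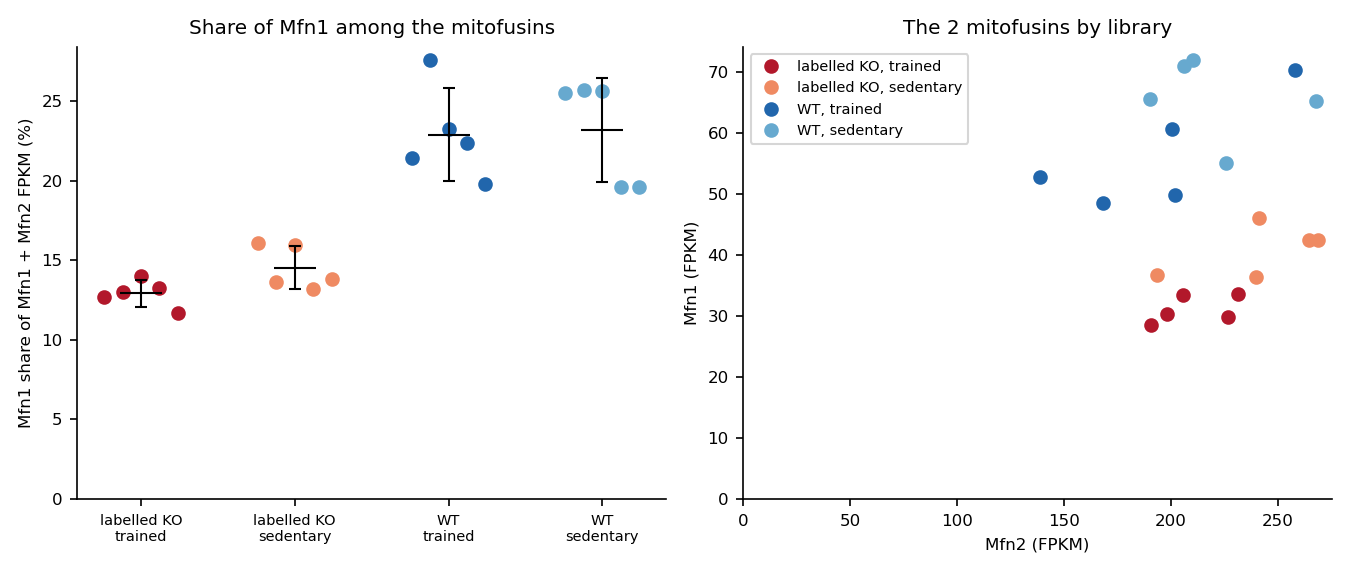
Left, Mfn1 as a percent of Mfn1 plus Mfn2 FPKM by library, with the mean and SD of 5 libraries as a bar; right, Mfn1 against Mfn2 FPKM for the 20 libraries, colored by group. The labelled knockout libraries lie at 11.7 to 16.1% and the wild-type libraries at 19.6 to 27.6%, at overlapping Mfn2 levels.

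Opa1, the inner-membrane fusion GTPase, varied more between libraries of one group than any other of the 10. It had 16.5, 13.5, 16.5, 13.4 and 11.7 FPKM in KO_Ex, 27.3, 17.5, 16.1, 15.3 and 16.4 in KO_Sed, 24.7, 13.2, 17.9, 14.5 and 16.5 in WT_Ex, and 33.5, 26.6, 34.5, 19.2 and 18.1 in WT_Sed. Values above 20 FPKM were in WT_Sed replicates 1 to 3, KO_Sed replicate 1 and WT_Ex replicate 1. Of these 5 libraries, 4 were among the 5 with high Arntl. No comparison was called with equal weights on all 20 libraries and no replicate block. The sedentary genotype log2 fold change was -0.48 (limma adjusted p = 0.111), and the wild-type training change -0.57 (limma adjusted p = 0.0843). With log2 Arntl as a covariate these were -0.04 and -0.15. With array weights both were called, at -0.68 and -0.73 (limma adjusted p = 0.00169 and 0.0107), as was the Opa1 interaction at 0.57 (0.0445). A replicate block also called both, at -0.48 and -0.57 (limma adjusted p = 0.0150 and 0.0125). It called the Opa1 training change in the labelled knockout as well (-0.34, limma adjusted p = 0.0493). Leaving out 1 library made calls, at -0.63 without KO_Sed replicate 1 and -0.60 without WT_Sed replicate 5 for genotype, and at -0.71 without WT_Ex replicate 1 and -0.69 without WT_Sed replicate 5 for training (limma adjusted p = 0.0212 to 0.0465).

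Among the mitophagy genes, Pink1 was the one that changed. It encodes a kinase that accumulates on depolarised mitochondria and phosphorylates ubiquitin. Pink1 had 164, 173, 167, 148 and 207 FPKM in KO_Ex hearts and 259.9, 287, 279, 275 and 265 FPKM in KO_Sed hearts. It had 337, 316, 336, 315 and 319 FPKM in WT_Ex hearts and 293, 313, 318, 389.8 and 374 FPKM in WT_Sed hearts. KO_Ex lay below KO_Sed and KO_Sed below both wild-type groups, with no overlap, while the wild-type groups overlapped. The trained genotype log2 fold change was -0.92 ± 0.0854 (limma adjusted p = 2.2e-07), and the training change in the labelled knockout was -0.68 ± 0.0854 (limma adjusted p = 1.88e-05). The Pink1 training change was -0.40 under a common sum and was still called (limma adjusted p = 0.00191). In wild-type hearts the training change was -0.05 (95% confidence interval -0.23 to 0.13). The 2 training changes differed by -0.63 ± 0.121 (limma adjusted p = 0.00757). Under a common sum that difference was -0.44 (limma adjusted p = 0.0570), and -0.39 (0.0516) with mitochondrial-genome transcripts left out of the sum. Without the 5 libraries of high Arntl the Pink1 interaction was -0.49 (limma adjusted p = 0.412).

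The sedentary genotype difference of Pink1 had the largest adjusted p of the 14 calls, at -0.30 ± 0.0854 (limma adjusted p = 0.0269). Its call was lost under a common sum (-0.20, limma adjusted p = 0.154). It was also lost without WT_Sed replicate 4 (-0.24, limma adjusted p = 0.0565), WT_Sed replicate 5 (-0.26, 0.0517), KO_Sed replicate 4 (-0.30, 0.0566) or KO_Sed replicate 5 (-0.29, 0.0623). All 5 KO_Sed libraries were still below all 5 WT_Sed libraries, at most 287 FPKM against at least 293 FPKM. Without the 5 libraries of high Arntl the sedentary values of Mtfp1, Mfn1 and Pink1 were -0.73, -0.48 and -0.44, not called with 1 WT_Sed library left. With log2 Arntl as a covariate they were -0.71, -0.48 and -0.38, all called (limma adjusted p = 0.00112, 0.00584 and 0.0330).

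The 2 receptor genes were not called. Bnip3, a hypoxia-inducible outer-membrane receptor, had 48.9, 38.5, 46.9, 44.1 and 38.6 FPKM in KO_Ex, 40.7, 46.3, 45.0, 43.8 and 55.1 in KO_Sed, 50.2, 29.6, 47.9, 40.4 and 45.1 in WT_Ex, and 47.9, 43.8, 40.5, 49.0 and 47.0 in WT_Sed. Its genotype log2 fold changes were 0.01 (95% confidence interval -0.24 to 0.26) when sedentary and 0.04 (-0.21 to 0.29) after training. Fundc1, on the X chromosome and at the lowest level of the 10, had 9.76, 8.10, 8.27, 7.07 and 8.57 FPKM in KO_Ex, 10.7, 9.58, 8.57, 8.67 and 10.2 in KO_Sed, 9.95, 6.14, 8.72, 6.40 and 9.84 in WT_Ex, and 10.2, 9.21, 12.6, 9.95 and 10.3 in WT_Sed. Its largest change was the wild-type training change (-0.35, limma adjusted p = 0.0924), which was called without WT_Ex replicate 1 (-0.42, limma adjusted p = 0.0302). Under a common sum both receptors were called higher in KO_Ex than in WT_Ex, Bnip3 by 0.33 and Fundc1 by 0.32, close to the 0.24 of the median gene.

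Set against all genes, the equal-weight fit on all libraries without a replicate block called none of the 10 higher on the deposited scale. In that fit each comparison but wild-type training called some of them lower. In sedentary hearts 0 of 10 rose and 3 of 10 fell in the labelled knockout, where 6.96% of all genes were called higher and 6.32% lower. After training 0 rose and 4 fell, against 12.5% and 15.4% of all genes. For training in the labelled knockout 0 rose and 5 fell, against 12.1% and 16.3%. For training in wild type none was called in either direction, against 2.94% and 2.53% of all genes. Those shares moved when libraries were left out: 403 genes rose and 347 fell, but 1051 and 1260 without WT_Ex replicate 1, 93 and 33 without WT_Ex replicate 4, and 34 and 6 without the 4 libraries of high Myl7. In sedentary hearts 955 rose and 867 fell in the labelled knockout, and 9 and 5 without the libraries of high Arntl. At an unadjusted limma p below 0.05, Mfn1, Mff, Opa1 and Fundc1 were lower with training in wild type. For the interaction 0 were higher and 2 lower, against 2.32% and 5% of all genes. The median log2 fold change of the 10 was -0.20, -0.18, -0.31, -0.19 and -0.05 in this order, and that of all genes -0.01, -0.01, -0.02, -0.01 and -0.01. The comparisons share groups and are not independent of each other. With a common sum, 3 of the 10 were called higher and 3 lower after training, where 5143 genes in all were higher and 787 lower, against 1713 and 2112 as deposited.

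**Figure D3:**
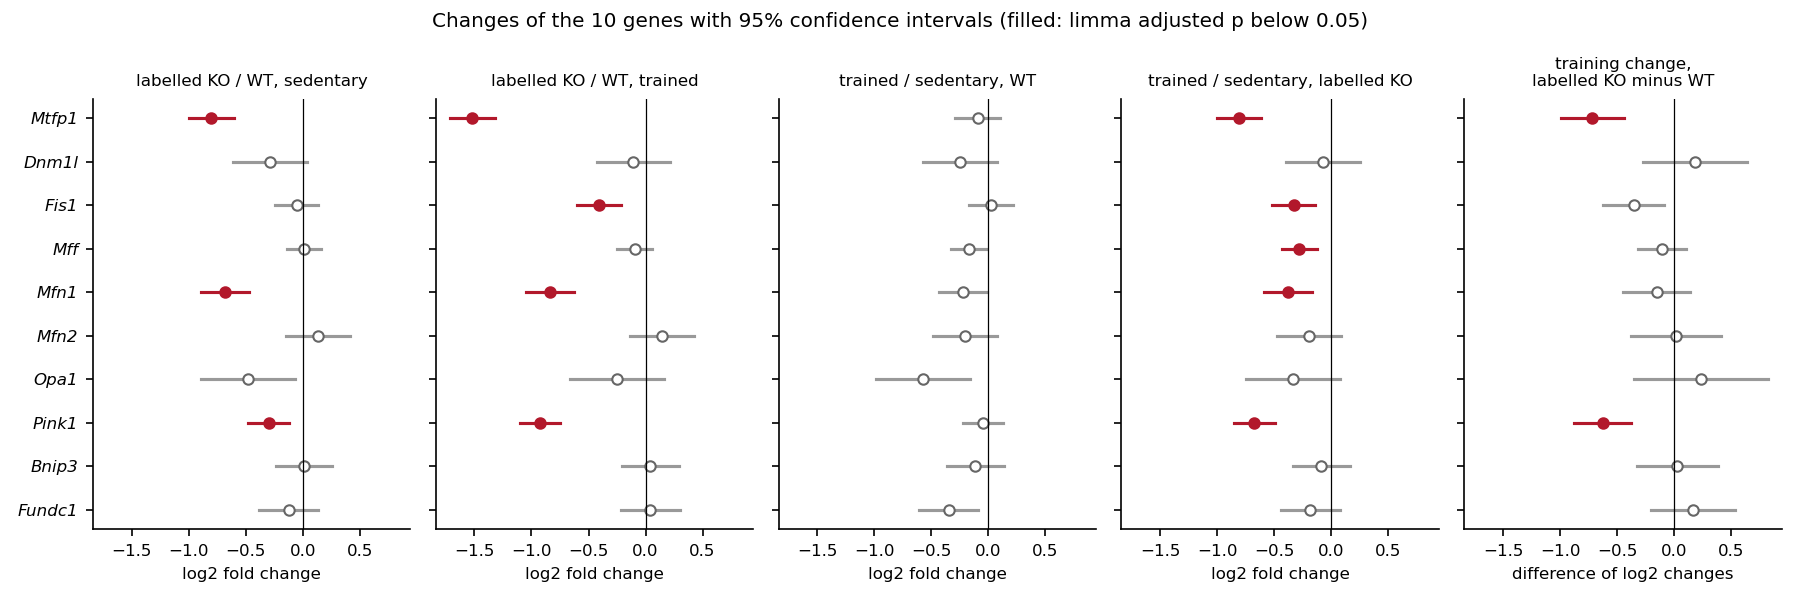
Log2 fold change of log2(FPKM + 0.5), with its 95% confidence interval, for the 10 genes in each comparison; the last panel subtracts the wild-type training change from the one in the labelled knockout, and filled points passed the limma adjusted threshold. Mtfp1 and Pink1 are filled in 4 of the 5 panels, Mfn1 in 3, Fis1 in 2 and Mff in 1, all to the left of 0.

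Some of the 10 transcripts also varied together within groups, and others did not. After group means were subtracted from log2(FPKM + 0.5), Pearson's r over the 20 libraries was 0.97 between Opa1 and Dnm1l, 0.89 between Mff and Fundc1, and 0.82 between Mfn1 and Opa1. Mfn2 followed Mff (0.77) and Bnip3 (0.72). Fis1 ran against Opa1 (-0.71), Mfn1 (-0.65) and Dnm1l (-0.60). Mtfp1 and Pink1, whose pooled r was 0.93, had 0.19 within groups, and Mtfp1 and Mfn2 had 0.01. All coefficients are over the same 20 libraries, which differ in depth and in atrial and clock transcripts, and are given as descriptions.

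**Figure D4:**
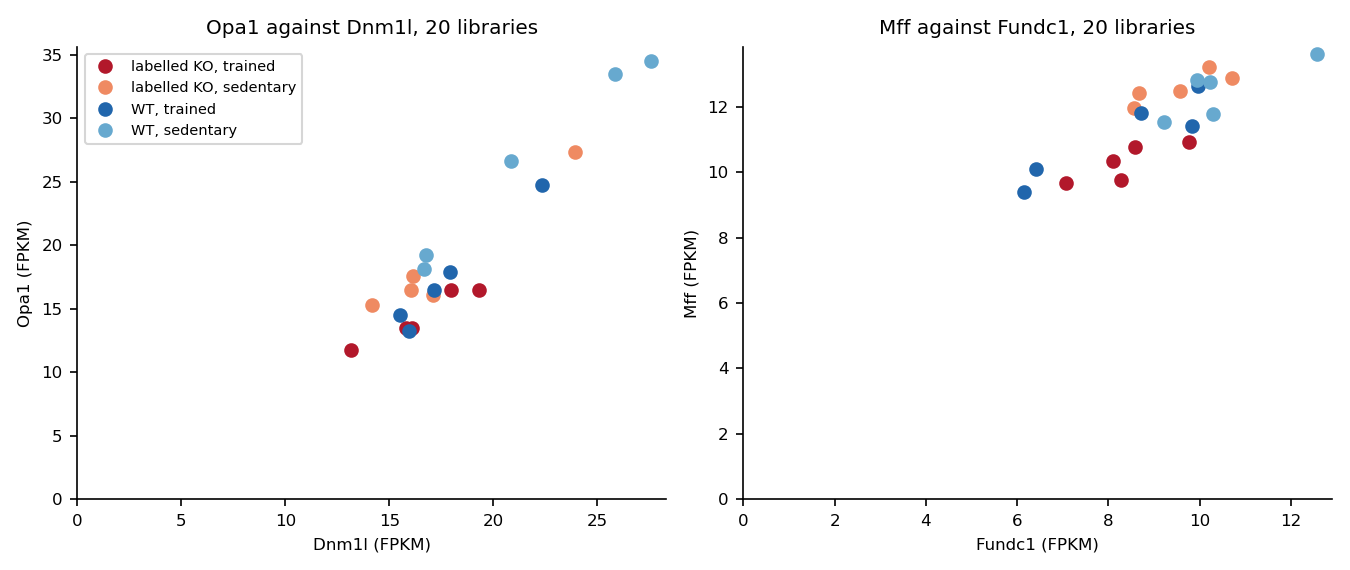
Opa1 against Dnm1l FPKM (left) and Mff against Fundc1 FPKM (right) in the 20 libraries, colored by group, with axes from 0. Each pair lies along a line that runs across the groups, and the WT_Sed libraries at 26.6 to 34.5 FPKM of Opa1 are also those at 20.9 to 27.6 FPKM of Dnm1l.

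The tested genes most like each called gene over the 20 libraries were, for Mtfp1, Mpc2 of the pyruvate carrier (Pearson's r 0.988), Ttll1 (0.988) and the superoxide dismutase Sod2 (0.985). For Mfn1 they were Dnajc28 (0.9746), the pyruvate dehydrogenase gene Dlat (0.974) and Sod2 (0.969). For Pink1 they were Gcdh (0.983), the phosphate carrier Slc25a3 (0.983) and the malate dehydrogenase Mdh2 (0.983). For Fis1 the first was Sod1 (0.972), and for Mff it was Ghitm (0.957). Within groups the first were Fabp3 for Mtfp1 (0.924), Fermt2 for Mfn1 (0.954) and Cep128 for Pink1 (0.872), so none of these 3 genes had the same first neighbour by both measures.

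Around the 10 genes, further genes of the same processes were counted. Over all genes, 6.96% were called higher and 6.32% lower in sedentary hearts, and 12.5% and 15.4% in trained hearts. For training these shares were 12.1% and 16.3% in the labelled knockout and 2.94% and 2.53% in wild type. For the interaction they were 2.32% and 5%. Each list below is to be read beside these shares. Of 13 tested genes for fusion partners and OPA1 processing, 0 rose and 8 fell in KO_Ex against WT_Ex, where 12.5% of all genes rose and 15.4% fell. The median log2 fold change of the 13 was -0.44, against -0.01 over all genes. The first 4 by p were the prohibitin Phb (-0.75), the OPA1-cleaving protease Oma1 (-0.76), the inner-membrane ion exchanger gene Letm1 (-0.61) and the protease gene Spg7 (-0.48), with limma adjusted p of 4.1e-05 or less. Phb averaged 56.4 ± 1.59 FPKM in KO_Ex, 80.9 ± 5.15 in KO_Sed, 95.5 ± 11.7 in WT_Ex and 92.2 ± 2.72 in WT_Sed (SD, n = 5 each). In sedentary hearts 4 of 13 fell, namely Miga2 (-0.50), Letm1 (-0.28), Oma1 (-0.30) and Opa3 (-0.32). Training lowered 8 of 13 in the labelled knockout and 0 in wild type, against 16.3% and 2.53% of all genes. The interaction was called lower for 6, against 5% of all genes, with Phb (-0.56), Oma1 (-0.46), Phb2 (-0.43) and Stoml2 (-0.38) first. Opa1 itself was not among the genes called.

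**Figure D5:**
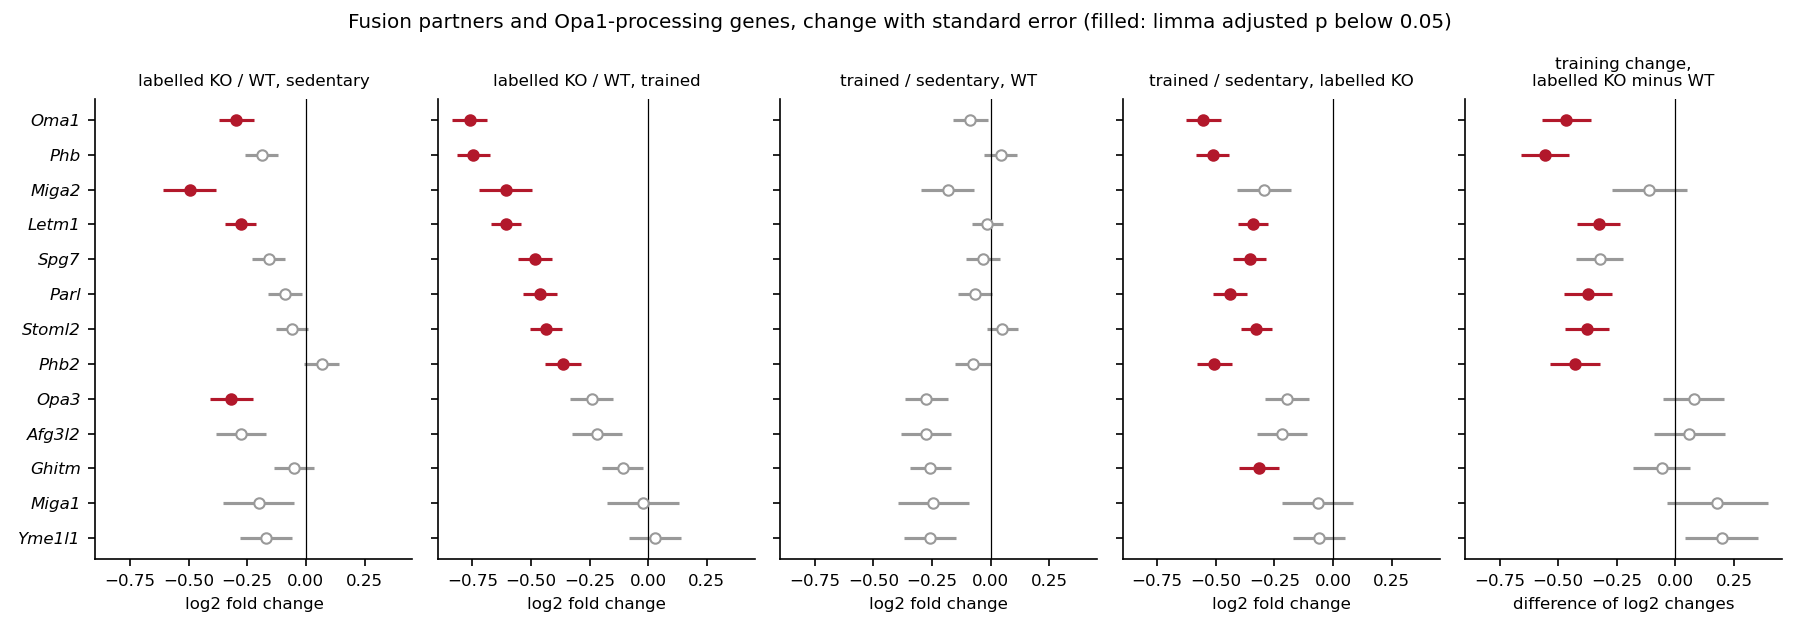
Log2 fold change with its standard error for the 13 tested fusion-partner and OPA1-processing genes in the 5 comparisons, ordered by the trained genotype change; filled points passed the limma adjusted threshold. In the trained genotype panel 8 genes are filled on the left, and in the wild-type training panel none is filled.

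The other fission genes were counted next. Of 13 tested, 2 rose and 3 fell in KO_Ex against WT_Ex, where 12.5% of all genes rose and 15.4% fell: Spire1, an actin nucleator gene (0.68), and the dynamin gene Dnm1 (0.63) rose, and Mtfr1l (-0.27), the DRP1 receptor gene Mief2 (-0.42) and the ubiquitin ligase gene Mul1 (-0.18) fell. In sedentary hearts 1 fell, Akap1 (-0.67, limma adjusted p = 0.014), whose product anchors protein kinase A at the outer membrane. Training raised 2 and lowered 4 in the labelled knockout and changed 0 in wild type, and 0 had a called interaction.

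Of 17 tested genes of PINK1 and ubiquitin mitophagy, 0 rose and 2 fell in trained hearts, where 12.5% of all genes rose and 15.4% fell. They were the outer-membrane GTPase gene Rhot2 (-0.90, limma adjusted p = 1.7e-06) and Tomm7 (-0.40), which stabilises PINK1 at the import pore. Rhot2, whose product helps move mitochondria along microtubules, averaged 9.20 ± 0.472 FPKM in KO_Ex, 12.8 ± 1.17 in KO_Sed, 17.8 ± 3.30 in WT_Ex and 18.9 ± 2.07 in WT_Sed (SD, n = 5 each). It also fell in sedentary hearts (-0.54), together with Rhot1 (-0.28). Training in the labelled knockout raised 2 and lowered 5, and the 1 called interaction was Tomm40 (-0.48, limma adjusted p = 0.049).

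Of 11 tested genes of receptor mitophagy and its control, Nipsnap2 fell in both genotype comparisons (-0.52 sedentary, -0.84 trained) and with training in the labelled knockout (-0.68). In trained hearts Nlrx1 also fell (-0.33) and the kinase gene Src rose (0.37). In sedentary hearts Pptc7 (-1.20) and Csnk2a1 (-0.28) also fell and Bcl2l1 rose (1.00). Pptc7, whose product holds down BNIP3, averaged 13.1 ± 4.46 FPKM in KO_Sed and 31.4 ± 11.6 FPKM in WT_Sed, and Bcl2l1 19.6 ± 7.64 and 9.94 ± 6.08 FPKM (SD, n = 5 each). Bcl2l1 averaged 15.5 ± 2.48 FPKM in KO_Ex and 17.8 ± 1.57 in WT_Ex, and WT_Sed libraries ran from 5.59 to 20.2 FPKM. High Arntl was found in 4 of the 5 WT_Sed libraries, and calls in these gene lists were not refitted without such libraries. Training changed 0 of 11 in wild type, where 2.94% of all genes rose and 2.53% fell.

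Of 22 autophagy core genes, 2 rose and 3 fell in KO_Ex against WT_Ex, no larger a share than the 12.5% and 15.4% of all genes. The autophagosome protein genes Map1lc3a (-0.83, limma adjusted p = 1.6e-06), Map1lc3b (-0.30) and Gabarapl2 (-0.23) fell, and the lysosome membrane genes Lamp2 (0.45) and Lamp1 (0.25) rose. Map1lc3a averaged 241 ± 26.2 FPKM in KO_Ex, 362 ± 29.7 in KO_Sed, 428 ± 39.7 in WT_Ex and 410.5 ± 46.6 in WT_Sed (SD, n = 5 each). Only Gabarap was called in sedentary hearts (0.40), and training changed 0 in wild type and lowered 5 in the labelled knockout. The interaction was called for Map1lc3a (-0.65) and Map1lc3b (-0.32).

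Of 13 upstream kinases, phosphatases and factors, the receptor gene Esrra fell in both genotype comparisons, by log2 fold changes of -0.47 and -0.85 (limma adjusted p = 9.2e-06 and 2.7e-09). Esrra averaged 48.6 ± 1.59 FPKM in KO_Ex, 62.2 ± 1.27 in KO_Sed, 87.7 ± 3.47 in WT_Ex and 86.8 ± 4.98 in WT_Sed (SD, n = 5 each). Its step down through KO_Sed to KO_Ex had the same order as that of Mtfp1 and Pink1, and its interaction was -0.37 (limma adjusted p = 0.0072). The mitochondrial transcription factor gene Tfam fell in both genotype comparisons (-0.35 and -0.29) and with training in wild type (-0.37). That was the 1 call among 13 for wild-type training, where 2.53% of all genes fell. In trained hearts Hif1a (0.87), Prkaa1 (0.24) and Ppargc1a itself (0.55) rose, and in sedentary hearts Ppargc1a rose (0.88).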

How the data were processed

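RNA came from heart tissue, and libraries were polyA-selected and directional, per the labels. The authors deposited FPKM per gene, and the submitters' processing notes name HISAT2 2.0.5, featureCounts 1.5.0-p3, DESeq2 1.20.0 and mm10 with no roles. All 20 libraries carry the same batch label. Gene models are from GENCODE M21. FPKM times exon length gave whole reads, within 0.01 reads, in every library for 96.5% of genes, all 10 described here among them, which gave the depth.

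Log2(FPKM + 0.5) was fitted with limma 3.58.1 in 1 model over the 4 groups, with a trended variance, for 13723 genes of mean FPKM of at least 0.5 (12128 were left out). P-values were Benjamini-Hochberg adjusted over all of them and called below 0.05. The fit was tested on simulated data. Log2 fold changes of FPKM + 0.5 understate changes of low genes. Replicates are separate mice.

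The genes, the lists around them and the tests were chosen with earlier results of these data known. From each list, up to 4 called genes per comparison were named in order of p. Where a list had 5 calls in KO_Ex against WT_Ex all were named, and these were chosen after their values were seen. Calls for training in the labelled knockout were mostly given as counts only. For Fis1 and Mff the single most similar gene is given. Alternatives were other pseudocounts, filters, scalings, weights, covariates, voom on recovered reads and left-out libraries. Dnm1l, Mff and Bnip3 share exons with opposite-strand genes. Those of Dnm1l and Mff averaged 0.062 and 0.06 FPKM, and that of Bnip3 has no deposited value. Pink1 shares exons with the same-strand microRNA genes Mir7019 and Gm27646, which have no deposited values. The strand setting of the counting is not given in the sources used here.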

Additional observations from a re-analysis of the deposited data

Results flagged for a closer look

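Fis1 was at 50.03 FPKM in KO_Sed replicate 3, far above the other 4 libraries of its group at 40.6 to 42.1 FPKM. Opa1 was at 27.3 FPKM in KO_Sed replicate 1, against 15.3 to 17.5 FPKM in the other 4, and this library had the highest Arntl of its group at 2.50 FPKM. These were 2 of 40 gene and group combinations checked, and chance gives about 1 in 20.

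The training change differed between genotypes for 2 of the 10 genes. For Mtfp1 the labelled knockout change minus the wild-type change was -0.72 on the log2 scale. For Pink1 it was -0.63. All 5 KO_Ex libraries were below all 5 KO_Sed libraries for both genes, and the wild-type groups overlapped.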

How the results depend on the processing

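Of 50 gene and comparison results, 14 were called, and 0 of these changed sign under 15 alternatives or when each of the 20 libraries was left out in turn. Past the threshold under every one of them were 5: Mtfp1, Mfn1 and Pink1 in KO_Ex against WT_Ex, and Mtfp1 and Pink1 in KO_Ex against KO_Sed. Scaling to a common sum gave 3 genes higher in KO_Ex against WT_Ex (0 as deposited), 2 lower in KO_Ex against KO_Sed (5) and 1 lower for the interaction (2). Leaving mitochondrial-genome transcripts out of that sum gave 1, 2 and 1. These scalings moved the median gene by 0.24, 0.21 and 0.15, and by 0.18, 0.13 and 0.19.

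The labels do not say that replicate numbers pair animals. After group means were subtracted from log2(FPKM + 0.5), same-numbered libraries correlated at -0.28 to 0.48 over 30 pairs, with 12 above 0.1. All 6 pairs of replicate 1 were at 0.25 to 0.36, and those of replicate 5 at 0.08 to 0.48. What the numbers share was not tested. Over all genes, a replicate block called 804 higher and 860 lower in WT_Ex against WT_Sed, against 403 and 347 without it. In KO_Sed against WT_Sed it called 1212 and 1255, against 955 and 867. With a replicate block 5 of the 10 genes were lower in KO_Sed against WT_Sed (3 without it) and 2 in WT_Ex against WT_Sed (0 without it). The block added Dnm1l (-0.29) and Opa1 (-0.48) when sedentary, Opa1 (-0.57) and Fundc1 (-0.35) for wild-type training, and Opa1 (-0.34) in KO_Ex against KO_Sed. Array weights gave the same counts of 5 and 2, where the 2 were Opa1 (-0.73) and Mfn1 (-0.30, limma adjusted p = 0.0361). For the interaction they gave Opa1 higher (0.57), 1 gene, and Fis1 lower (-0.44). Without the libraries of high Arntl 0 were lower in KO_Sed against WT_Sed and 0 for the interaction, with 1 WT_Sed library left and the spread pooled over groups. Leaving out single libraries gave 0 to 4 lower genes in WT_Ex against WT_Sed, with 4 reached without WT_Ex replicate 1 and 1 without WT_Sed replicate 5. Beyond the smaller number of samples where libraries were left out, the cause was not tested. The lowest read number of any of the 10 genes in a library was 204 (Fundc1), and the effect of depth on the calls was not tested.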
